A study of Mus musculus with 45 samples.

Results

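The mouse mitochondrial genome encodes 2 ribosomal RNAs, 13 messenger RNAs and a set of transfer RNAs, and the counts of these transcripts are described here in cultured mouse forelimb buds exposed to bisphenol A (BPA), a plastic monomer studied as an endocrine disruptor. Members were all genes whose symbol starts with mt-, which are 34 of the 36300 genes in the deposited tables: 2 ribosomal RNAs, 13 messenger RNAs and 19 transfer RNAs. All 34 lie on the mitochondrial chromosome (MT) of build mm10, with the same start, end and strand as in GENCODE release M21. Transcripts annotated on the plus strand are called heavy-strand transcripts below (both ribosomal RNAs, 12 messenger RNAs and 12 transfer RNAs), and those on the minus strand are called light-strand transcripts (mt-Nd6 and 7 transfer RNAs). The annotated transfer RNA genes mt-Tf, mt-Td and mt-Ts1 are not analysed here.

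Forelimbs of each CD1 mouse embryo at gestation day 13 were pooled and cultured in glass bottles, limbs of both sexes together, for 3, 24 or 48 h. A bottle received dimethyl sulfoxide (DMSO, the vehicle), 10 µM BPA or 50 µM BPA, and each of the 9 groups of dose and time has 5 libraries, 45 in all. Where the labels disagreed on culture length (a field of the 50 µM, 3 h libraries gives 24 hours, and a shared protocol text gives 3), the titles were followed. Whether the 5 libraries of a group represent separate litters is not in the labels, so p-values measure the spread between libraries, which may be technical. In such whole-tissue RNA, fewer cells of a type and less RNA per cell cannot be told apart. The limb mesenchyme markers Prrx1, Prrx2, Tbx5, Hoxd13, Hoxa13, Msx1 and Twist1 were measured in every group, and their summed level with 50 µM BPA overlapped that of vehicle at each time.

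Mitochondrial DNA is copied into RNA from both strands as long precursors that span many genes. Transfer RNAs sit between most of the other genes, and cutting them out releases the ribosomal and messenger RNAs, most of which then receive short poly(A) tails. The 2 ribosomal RNAs form the core of the mitochondrial ribosome, and the 13 messenger RNAs code for subunits of the respiratory chain and of ATP synthase. The libraries were made from RNA bound to poly-T beads and then copied with random primers, so a transcript is counted here only as far as it was carried through that purification.

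Sequences that bear on what the counts can show come first. Poly-T beads bind runs of A, and the stretches below show the longest run of A within each ribosomal RNA (capitals), from MT:680-734 and MT:1463-1519 on the plus strand of mm10 (GENCODE M21 transcripts, as for all sequences here).
mt-Rnr1: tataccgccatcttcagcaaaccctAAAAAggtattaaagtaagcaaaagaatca
mt-Rnr2: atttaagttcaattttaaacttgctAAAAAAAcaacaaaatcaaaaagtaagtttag

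The run is 5 bases long in mt-Rnr1 and 7 in mt-Rnr2, and A makes up 37.8% and 38.2% of the bases of these 2 genes. In mt-Nd6, the light-strand messenger RNA, A makes up 22.2% of the bases and its longest run is 3. In the other messenger RNAs the longest run is from 4 (mt-Co2 and mt-Nd4l) to 8 (mt-Nd2). A makes up from 29.5% (mt-Co1) to 40.7% (mt-Atp8) of their bases, and the ribosomal RNAs lie within both ranges. How far A within a transcript or a tail carried it through the purification was not tested. The 3′ ends of mt-Nd5 (MT:13532-13565, plus strand) and mt-Nd6 (MT:13552-13585, minus strand) overlap by 14 bases on opposite strands, shown in capitals.
mt-Nd5: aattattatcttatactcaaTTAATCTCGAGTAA
mt-Nd6: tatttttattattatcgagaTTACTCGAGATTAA

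No source used here states whether strand was kept in the libraries or in the counting, and reads of a light-strand gene can then not be told apart from reads of the opposite strand at the same place. The same limit holds for the light-strand transfer RNAs, of which the 3 that results below turn on are shown with their anticodon in capitals. mt-Tp (proline) lies at MT:15356-15422, mt-Tn (asparagine) at MT:5089-5159 and mt-Te (glutamate) at MT:14071-14139, all on the minus strand.
mt-Tp: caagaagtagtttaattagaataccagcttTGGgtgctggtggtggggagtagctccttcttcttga
mt-Tn: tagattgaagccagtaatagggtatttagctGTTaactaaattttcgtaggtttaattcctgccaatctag
mt-Te: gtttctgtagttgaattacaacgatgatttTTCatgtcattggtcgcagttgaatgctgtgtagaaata

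Some of the messenger RNAs share their sequence with copies of mitochondrial DNA in the nuclear genome. On the minus strand of chromosome 1, 7 annotated nuclear copies between 24611535 and 24616197 repeat parts of 7 mitochondrial messenger RNA genes. The first 60 bases of mt-Co2 (MT:7013-7072) are identical to those of its copy Gm28661 (chr1:24615506-24615565), so a read from there has more than 1 equal place.
mt-Co2: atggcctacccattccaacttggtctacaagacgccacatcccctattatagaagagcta
Gm28661: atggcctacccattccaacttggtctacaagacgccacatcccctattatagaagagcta

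Over their aligned lengths, the copies of mt-Co2, mt-Atp6, mt-Co3, mt-Nd3, mt-Nd4l and mt-Nd4 differ from the mitochondrial gene at 0 bases. The copy of mt-Co1, Gm29216, covers 31.3% of the gene and differs at 1 base, A1066T, counted from the first base of mt-Co1 and shown in capitals (MT:6390-6449 against chr1:24616129-24616188).
mt-Co1: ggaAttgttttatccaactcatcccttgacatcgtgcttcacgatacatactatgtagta
Gm29216: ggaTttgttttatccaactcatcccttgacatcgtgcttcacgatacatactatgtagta

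The 13 messenger RNAs fell into 2 sets by level. A set of 7 (mt-Co1, mt-Cytb, mt-Nd1, mt-Nd4, mt-Nd5, mt-Nd2 and mt-Nd6) had means of 11195 to 142017 counts over the 45 libraries, while mt-Co2, mt-Atp6, mt-Co3, mt-Nd4l, mt-Atp8 and mt-Nd3 had means of 12.2 to 303. Per kilobase of gene in vehicle at 3 h, mt-Co1 (a core subunit of cytochrome c oxidase) came to 4059 ± 296 CPM (counts per M counts, scaled by TMM over all 45 libraries; SD, n = 5), mt-Cytb (the cytochrome b of complex III) to 2806 ± 195 and mt-Nd1 (a complex I subunit) to 2229 ± 239. mt-Nd6, mt-Nd4, mt-Nd2 and mt-Nd5, all complex I subunits, followed at 1223 ± 142, 1068 ± 101, 1062 ± 143 and 1005 ± 157 CPM per kilobase. In that order, mt-Nd6 lay above mt-Nd4 by more than 1 SD of either, while mt-Nd4 and mt-Nd2, and mt-Nd2 and mt-Nd5, differed by less than 1 SD. The SD is that between libraries. It does not cover the assignment of reads from shared sequence, which makes up 60.8% of the 100-base windows of mt-Nd4 and 0 of those of mt-Nd6. mt-Rnr1 stood at 418 ± 70.6 and mt-Rnr2 at 297 ± 50.5 CPM per kilobase, below all 7 of these messenger RNAs.

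Of the 6 low messenger RNAs, 5 share 97.6% to 99.9% of their 100-base windows exactly with another annotated transcript. For mt-Nd4 the share is 60.8%, for mt-Co1 30.8%, for mt-Nd2 3.19%, and for mt-Cytb, mt-Nd1, mt-Nd5, mt-Nd6 and both ribosomal RNAs it is 0. mt-Atp8 is the exception among the low ones, at 0 with the annotated transcripts, and it overlaps mt-Atp6 by 43 bases. Only annotated transcripts were searched. On MT mt-Atp8 starts between mt-Co2 and mt-Atp6, and the chromosome 1 stretch between the copies of these 2 genes (24614651 to 24614885) was not compared with it. The value of 0 therefore does not show that mt-Atp8 lacks a nuclear copy. The copies themselves held means of 99.4 to 461 counts. The levels given for mt-Co1, mt-Nd4, mt-Nd2 and the 5 low messenger RNAs are of counts as deposited, and the assignment of reads from shared sequence was not examined here.

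**Figure D1:**
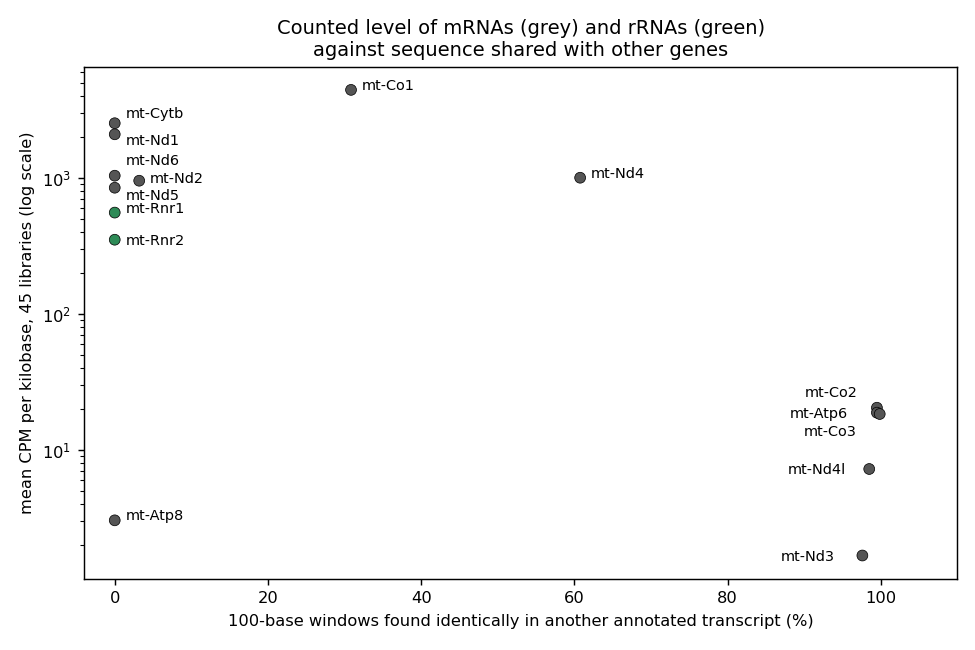
Mean CPM per kilobase over the 45 libraries (log scale) of the 13 messenger RNAs (grey) and 2 ribosomal RNAs (green) against the share of their 100-base windows found exactly in another annotated transcript. The 5 points at 97.6% or more lie at or under 20.5 CPM per kilobase, and mt-Atp8 lies at 3.06 with 0% shared with annotated transcripts. Unannotated nuclear sequence was not searched.

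All members together took 1.47% to 2.27% of the counts of a library, of which the messenger RNAs held most. The libraries hold 17.54 to 27.12 M counts. In vehicle, messenger RNAs came to 1.70 ± 0.148% of the counts at 3 h, ribosomal RNAs to 0.0886 ± 0.0148% and transfer RNAs to 0.00675 ± 0.000869% (mean ± SD, n = 5). With 50 µM BPA the ribosomal RNAs took a larger share at each time, the messenger RNA share overlapped that of vehicle at each time, and the transfer RNA share lay above all vehicle libraries at 24 and 48 h. These shares were not tested.

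With 50 µM BPA, both ribosomal RNAs rose at 3, 24 and 48 h: mt-Rnr1, the small-subunit ribosomal RNA, 1.83-fold to 2.31-fold, and mt-Rnr2, the large-subunit one, 1.37-fold to 1.60-fold. mt-Nd6 fell at each time. By the calls of edgeR, mt-Cytb fell at 3 and 24 h, mt-Nd4 and mt-Nd1 fell at 3 h and mt-Co1 rose at 48 h. The transfer RNA mt-Tp rose at 24 and 48 h and mt-Tn rose at 24 h. Whether mt-Cytb was called lower at 48 h depended on the method, as given below. Tests used edgeR's quasi-likelihood test over all genes with Benjamini-Hochberg adjustment, and a gene was called at an adjusted p below 0.05. At 3 h, 6 of the 25 members that passed the filter on low counts were called, 2 higher and 4 lower, beside 1.41% of all genes tested (0.889% higher and 0.518% lower). At 24 h it was 6 of 25, 4 higher and 2 lower, beside 3.47% (1.37% and 2.1%), and at 48 h 5 of 25, 4 higher and 1 lower, beside 9.18% (3.88% and 5.3%). The median log2 fold change over the tested members was -0.34, 0.055 and 0.23 at 3, 24 and 48 h, against -0.0021, -0.00090 and -0.0049 over all genes.

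**Figure D2:**
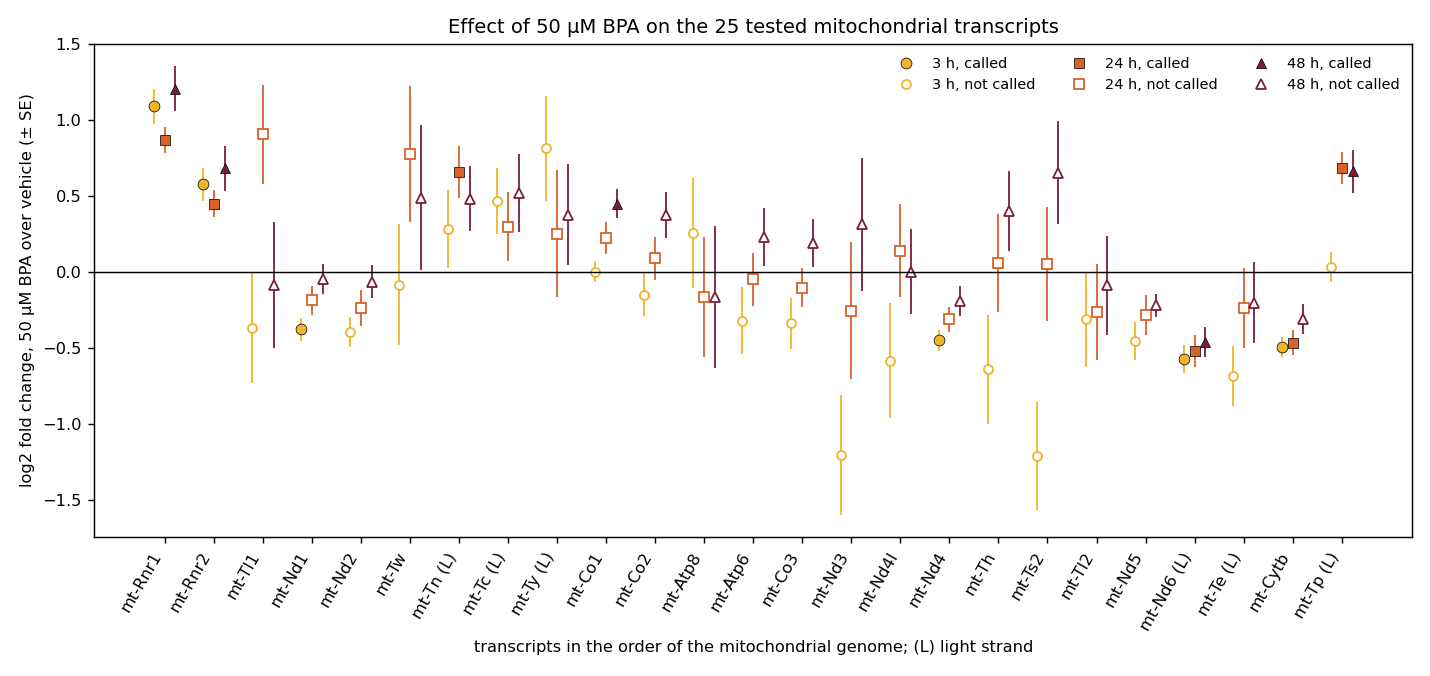
Log2 fold change (± SE) of 50 µM BPA over vehicle for the 25 tested members, in genome order, at 3 h (circles), 24 h (squares) and 48 h (triangles), with filled symbols for those called by edgeR. Both ribosomal RNAs lie above 0 and mt-Nd6 below 0 at each time, and mt-Co1 lies at 0.0036 at 3 h and 0.45 at 48 h.

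mt-Rnr1 (MT:70-1024) rose at each time with 50 µM BPA. At 3 h the vehicle libraries held 373, 504, 376, 418 and 324 CPM and those with 50 µM BPA 919.9, 954, 726, 959 and 711 CPM. At 24 h the values were 431, 409, 415, 443 and 419.8 against 783, 699, 638, 920.2 and 839 CPM, and at 48 h 377, 283, 291, 308 and 320.1 against 1101, 720.3, 556, 609 and 680.0 CPM. Every treated library lay above every vehicle library of its time. The fold was 2.13 at 3 h (log2 fold change 1.09 ± 0.11 SE, adjusted p = 4.19e-05), 1.83 at 24 h (log2 fold change 0.87 ± 0.084 SE, adjusted p = 1.72e-04) and 2.31 at 48 h (log2 fold change 1.21 ± 0.15 SE, adjusted p = 1.02e-04).

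mt-Rnr2 (MT:1094-2675) rose at each time as well. Vehicle libraries held 439, 574, 456, 519 and 364 CPM at 3 h, and those with 50 µM BPA 708, 813, 688, 735 and 584 CPM. The values were 523, 593, 534, 530.4 and 519 against 716, 685, 601, 896 and 797 CPM at 24 h, and 514, 382, 387, 388 and 442 against 997, 713, 506, 561 and 633 CPM at 48 h. The groups were apart at 3 and 24 h and overlapped at 48 h, where replicate 1 was the highest treated library, as it was for mt-Rnr1 and mt-Co1. The folds were 1.49, 1.37 and 1.60 at 3, 24 and 48 h (log2 fold change 0.58 ± 0.11 SE, 0.45 ± 0.089 and 0.68 ± 0.15). The adjusted p was 0.0101, 0.0123 and 0.00757, and no library left out ended a call of either ribosomal RNA.

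The heavy-strand messenger RNAs called with 50 µM BPA were not all called in 1 direction. mt-Cytb (MT:14145-15288), the most distal of them, fell at 3 and 24 h. At 3 h its level was 2914, 3403, 3253, 3428 and 3052 CPM in vehicle and 2065, 2404, 2497, 2309.8 and 2176 CPM with 50 µM BPA, with no overlap. It was 2723, 3338, 3559, 3197 and 3270.5 against 2182, 2269.5, 2085, 2359 and 2795 CPM at 24 h, where replicate 5 of the treated group passed the lowest vehicle library, and 3251, 2725, 2912, 3051 and 3737 against 2952, 2742, 2235, 2087 and 2715 CPM at 48 h, where the groups also overlapped. The fall was 1.41-fold at 3 h (log2 fold change -0.49 ± 0.067 SE, adjusted p = 6.74e-04) and 1.38-fold at 24 h (log2 fold change -0.46 ± 0.084 SE, adjusted p = 0.00739). At 48 h the log2 fold change was -0.31 ± 0.098 SE, with an adjusted p of 0.0645. There it was called lower with DESeq2 (adjusted p = 0.0191), with no filter on low counts (0.0182), in the edgeR fit of all 45 libraries (0.041) and with the replicate number as a block (0.00260). It was not called there with the other scaling factors, the filter of at least 1 CPM in 5 libraries or the nuclear copies added.

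mt-Nd4 (MT:10167-11544) and mt-Nd1 (MT:2751-3707) were lower at 3 h, where no treated library reached the lowest vehicle library. For mt-Nd4 the vehicle libraries held 1285, 1533, 1486, 1653 and 1401 CPM and the treated ones 1019.6, 1142, 1135, 1113 and 1008 CPM (log2 fold change -0.45 ± 0.071 SE, adjusted p = 0.00245). For mt-Nd1 they held 1905, 2366, 2180.3, 2330.2 and 1883 against 1497, 1807, 1714, 1693 and 1549.8 CPM (log2 fold change -0.38 ± 0.077 SE, adjusted p = 0.0204). The call of mt-Nd1 ended without vehicle replicate 2, 3 or 4 or without 50 µM replicate 1 or 5, with an adjusted p of up to 0.0740. At 24 h the log2 fold changes were -0.31 for mt-Nd4 and -0.19 for mt-Nd1, and at 48 h -0.19 and -0.046, none of them called with edgeR without a replicate block. For mt-Nd4 at 24 h the adjusted p was 0.0550, and it was called with upper-quartile scaling, DESeq2, no filter on low counts or the block (adjusted p from 0.00921 to 0.0499). mt-Nd2 and mt-Nd5 had log2 fold changes of -0.40 and -0.45 at 3 h (adjusted p = 0.0630 and 0.0953 with edgeR). Both were called at 3 h with DESeq2 (0.00798 and 0.0175) and with no filter (0.00345 and 0.00284), and mt-Nd2 with the block (0.00545). mt-Nd5 was also called at 24 h with the block (0.0402) and at 48 h with DESeq2 (0.0464).

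mt-Co1 (MT:5328-6872), the messenger RNA with the highest counts, was called at 48 h and was higher there. At 3 h its vehicle libraries held 5902, 6408, 6376, 6908 and 5758 CPM and the treated ones 6225, 6305, 7037, 6382 and 5652 CPM, fully overlapping. At 24 h the values were 5284, 7139, 7382, 6621 and 6437 against 6679.8, 6685, 7090.1, 8601 and 9402 CPM, and at 48 h 6423, 5732, 6246, 6168 and 7385 against 11075, 8695, 7552, 7627 and 8942 CPM, where all treated libraries were above all vehicle libraries. The log2 fold change was 0.0036 at 3 h, 0.22 at 24 h (adjusted p = 0.326) and 0.45 at 48 h (1.37-fold, adjusted p = 0.00741). The 6 low messenger RNAs, mt-Co2, mt-Atp8, mt-Atp6, mt-Co3, mt-Nd3 and mt-Nd4l, were not called with 50 µM BPA at any time by edgeR without a block, with log2 fold changes from -1.20 (mt-Nd3 at 3 h) to 0.38 (mt-Co2 at 48 h).

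mt-Nd6 (MT:13552-14070), a complex I subunit and the single messenger RNA of the light strand, fell at all 3 times. At 3 h the vehicle libraries held 573, 646, 627, 753 and 575 CPM and those with 50 µM BPA 389, 468, 493, 396 and 402 CPM. It was 492, 713, 659, 567 and 655 against 394, 418, 362, 449 and 532 CPM at 24 h, and 666, 529, 545, 574 and 737 against 506, 442, 387, 386 and 509 CPM at 48 h. Treated libraries lay below all vehicle libraries at 3 and 48 h, and at 24 h replicate 5 of the treated group passed the lowest vehicle library. The falls were 1.49-fold, 1.43-fold and 1.38-fold (log2 fold change -0.57 ± 0.090 SE, -0.52 ± 0.11 and -0.46 ± 0.10), with adjusted p of 0.00245, 0.0152 and 0.00851.

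The replicate numbers paired the libraries of the 48 h comparison by the check of same-numbered libraries, and a fit with the number as a block called 10 members there, 6 higher and 4 lower, beside 15.5% of all genes (7.29% higher and 8.24% lower), where the fit without the block called 9.18%. It kept the 5 calls above and added mt-Cytb (log2 fold change -0.31 ± 0.062 SE, adjusted p = 0.00260), mt-Nd4 (-0.19 ± 0.046, adjusted p = 0.0107) and mt-Nd5 (-0.21 ± 0.057, adjusted p = 0.0186) as lower. It added mt-Co2 (0.36 ± 0.11, adjusted p = 0.0287) and mt-Tc (0.60 ± 0.17, adjusted p = 0.0287) as higher.

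**Figure D3:**
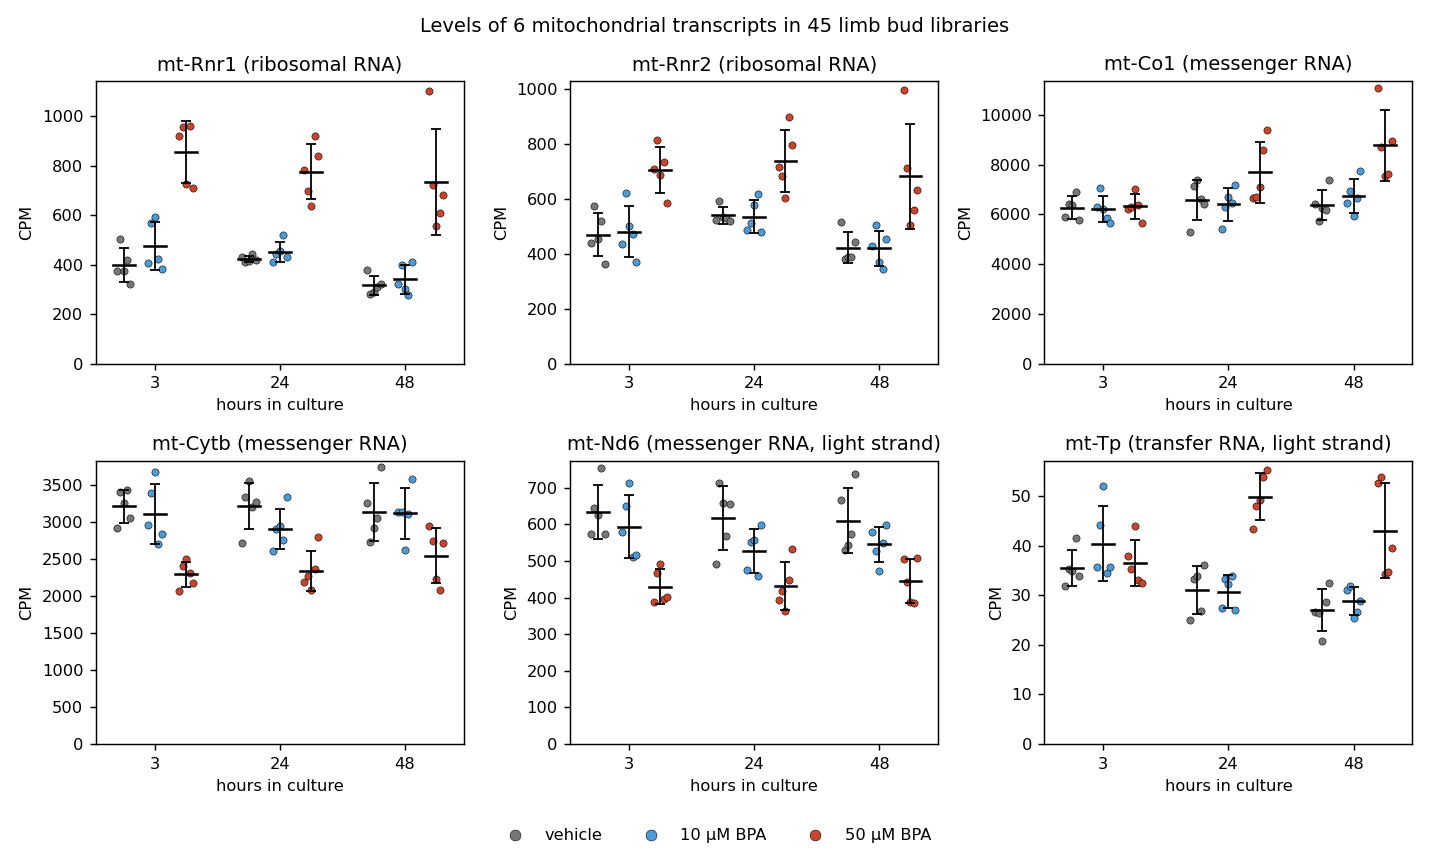
Level (CPM, axes from 0) of 6 members in each library, by hours in culture, for vehicle (grey), 10 µM BPA (blue) and 50 µM BPA (red), with group mean and SD. The red points of mt-Rnr1 stand above the grey ones at each time, those of mt-Cytb and mt-Nd6 lie below at 3 h, and those of mt-Tp rise above at 24 and 48 h.

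Of the 19 transfer RNAs, 10 were tested against 50 µM BPA, and those called were on the light strand. mt-Tp, next to the non-coding control region, had the highest count of all transfer RNAs (mean 747.1). At 3 h its level was 31.9, 35.4, 34.98, 41.6 and 33.99 CPM in vehicle and 38.03, 35.3, 44.00, 33.04 and 32.6 CPM with 50 µM BPA, overlapping (log2 fold change 0.032 ± 0.100 SE). At 24 h it was 24.96, 33.4, 33.9, 26.8 and 36.2 against 43.4, 48.1, 49.3, 53.9 and 55.4 CPM, and at 48 h 26.6, 26.5, 20.8, 28.6 and 32.5 against 52.8, 53.9, 34.4, 34.7 and 39.5 CPM, with every treated library above every vehicle library at both times. mt-Tp rose 1.61-fold at 24 h (log2 fold change 0.69 ± 0.11 SE, adjusted p = 0.00214) and 1.58-fold at 48 h (log2 fold change 0.66 ± 0.14 SE, adjusted p = 0.00695).

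mt-Tn was called at 24 h, with 7.33, 4.83, 5.46, 4.79 and 6.76 CPM in vehicle and 9.91, 9.60, 6.52, 9.70 and 10.6 CPM with 50 µM BPA, where replicate 3 of the treated group was the lowest (log2 fold change 0.66 ± 0.17 SE, adjusted p = 0.0470). That call ended under upper-quartile scaling and in the fit of all 45 libraries, with an adjusted p of up to 0.0937. It also ended in 8 of the 10 fits that left out a library, all but those without vehicle replicate 1 or 50 µM replicate 3, with an adjusted p of up to 0.116. The neighbours of mt-Tn on the light strand, mt-Tc (cysteine) and mt-Ty (tyrosine), had log2 fold changes of 0.47 and 0.82 at 3 h, 0.30 and 0.25 at 24 h, and 0.52 and 0.38 at 48 h, all without a call in the fit without a block. mt-Tc held 9.27, 14.7, 6.61, 13.6 and 6.59 CPM in vehicle and 10.4, 17.9, 14.4, 14.96 and 12.9 CPM with 50 µM BPA at 3 h, with overlap.

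mt-Te, the light-strand transfer RNA between mt-Nd6 and mt-Cytb, was lower at 3 h without a call by edgeR, at 3.11, 4.44, 2.98, 3.34 and 4.57 CPM in vehicle and 2.55, 2.62, 2.02, 2.02 and 2.30 CPM with 50 µM BPA (log2 fold change -0.69 ± 0.20 SE, adjusted p = 0.109). The groups did not overlap, and DESeq2 called it (adjusted p = 0.0292). The tested transfer RNAs of the heavy strand, mt-Tl1 and mt-Tl2 (leucine), mt-Tw (tryptophan), mt-Th (histidine) and mt-Ts2 (serine), had means of 11.7 to 37.2 counts and were not called by edgeR. mt-Ts2 at 3 h was 1.09, 1.24, 2.07, 1.77 and 1.23 CPM in vehicle and 0.385, 0.874, 0.985, 0.647 and 0.341 CPM with 50 µM BPA, which did not overlap (log2 fold change -1.21 ± 0.36 SE, adjusted p = 0.118 with edgeR, 0.0339 with DESeq2, which called it). The other 9 transfer RNAs had means of 0.0444 to 4.78 counts, 8 of them were tested in no comparison, and mt-Tk was at 0 in 44 of the 45 libraries. The ninth, mt-Tq, was tested in the 6 contrasts of the fit of all 45 libraries and not called.

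Ratios within a library need no scaling between libraries. For 100 counts of mt-Cytb, vehicle libraries at 3 h held 203, 188, 196, 202 and 189 counts of mt-Co1, and libraries with 50 µM BPA held 301, 262, 282, 276 and 259.7. The group means of this ratio were 195 ± 6.78, 204 ± 8.20 and 204 ± 7.66 in vehicle at 3, 24 and 48 h (SD, n = 5) and 276 ± 16.8, 328 ± 28.1 and 345 ± 24.5 with 50 µM BPA, with no overlap at any time. mt-Co1 thus made up 39.00 ± 0.677% of the mitochondrial messenger RNA counts as deposited at 48 h in vehicle and 49.9 ± 1.49% with 50 µM BPA. In these sums, mt-Co2, mt-Atp6, mt-Co3, mt-Nd3 and mt-Nd4l, which share nearly all sequence with other transcripts, have means of 12.2 to 303 counts. The same limit holds for the sums of messenger RNAs in the ratios below. The ratios were chosen with the levels known and carry no test.

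Between the 2 ribosomal RNAs, vehicle libraries at 3 h held 84.9, 87.8, 82.6, 80.5 and 88.9 counts of mt-Rnr1 for 100 of mt-Rnr2. With 50 µM BPA they held 129.9, 117, 105.6, 130.4 and 122. At 24 h the means were 78.7 ± 5.84 against 105 ± 2.98, and at 48 h 74.9 ± 2.79 against 107 ± 3.78, again with no overlap. Replicate 1 of the 48 h treated group, which was the highest in both ribosomal RNAs, lay at 110.5 among 101, 109.8, 108.6 and 107.4. For 100 messenger RNA counts, ribosomal RNAs came to 5.19 ± 0.666, 5.78 ± 0.677 and 4.52 ± 0.487 in vehicle and 11.2 ± 1.54, 9.56 ± 1.01 and 7.96 ± 1.17 with 50 µM BPA at 3, 24 and 48 h.

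The light-strand messenger RNA was set against the heavy strand in 3 ways. For 100 counts of all 12 heavy-strand messenger RNAs, mt-Nd6 came to 3.94 ± 0.146, 3.80 ± 0.233 and 3.85 ± 0.207 in vehicle and 3.16 ± 0.182, 2.79 ± 0.150 and 2.61 ± 0.145 with 50 µM BPA, with no overlap. Against mt-Cytb, its nearest heavy-strand messenger RNA apart from mt-Nd5, the ratio was 19.7 ± 1.28, 19.1 ± 1.52 and 19.4 ± 0.721 in vehicle and 18.7 ± 1.02, 18.4 ± 0.701 and 17.6 ± 1.08 with 50 µM BPA, and the groups overlapped at each time. Against mt-Nd5, with which it shares 14 bases, the groups overlapped at each time too.

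**Figure D4:**
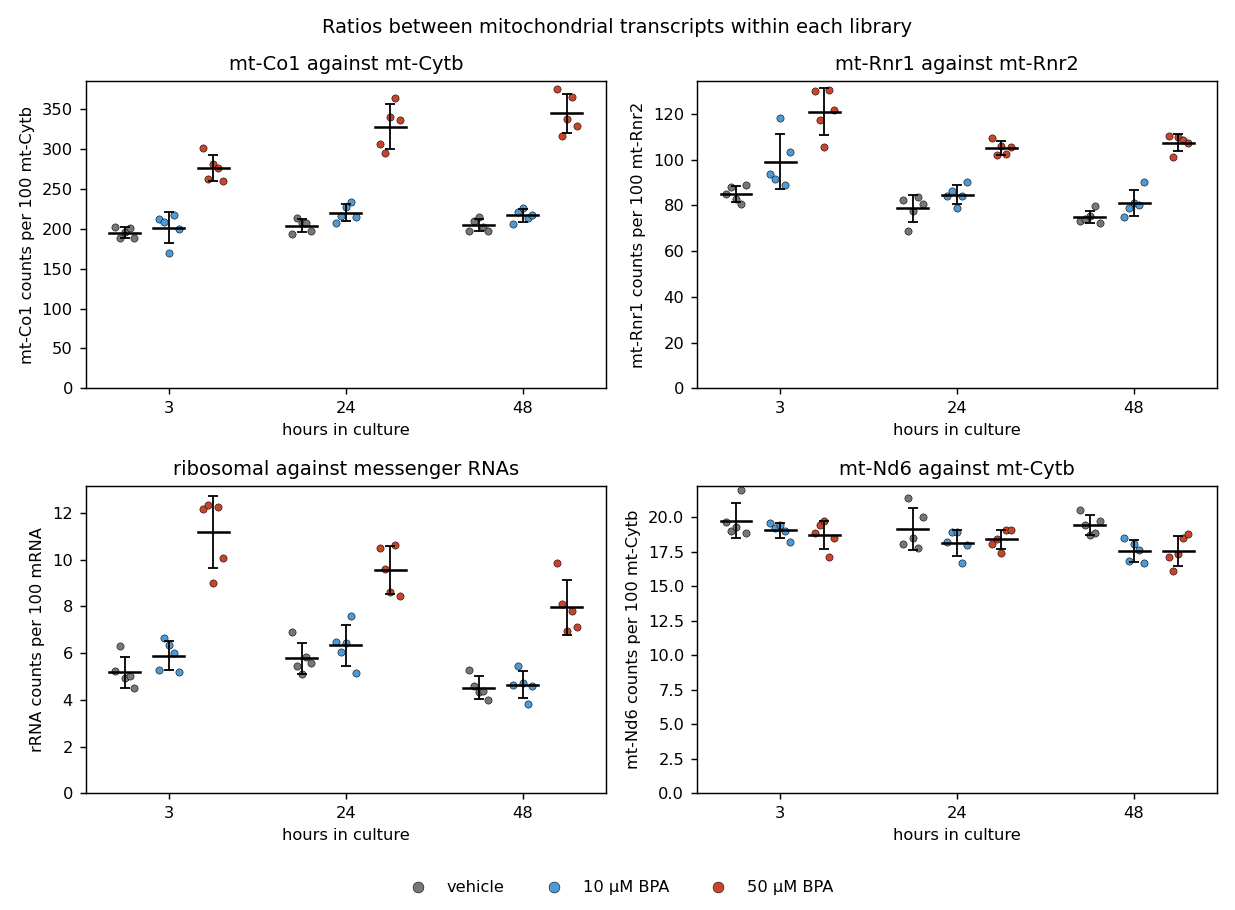
Ratios of counts within each library (axes from 0), by hours in culture, for vehicle (grey), 10 µM BPA (blue) and 50 µM BPA (red), with group mean and SD. The ratios of mt-Co1 to mt-Cytb, mt-Rnr1 to mt-Rnr2 and ribosomal to messenger RNAs lie higher with 50 µM BPA at each time, whereas mt-Nd6 to mt-Cytb overlaps vehicle.

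At 10 µM BPA no member was called at 3, 24 or 48 h with edgeR, beside 0.0%, 0.0% and 0.00591% of all genes. DESeq2 called 0 members at each time as well, beside 0.0999%, 0.0996% and 0.313%. With the replicate number as a block, edgeR called 2 at 24 h, mt-Nd4 (log2 fold change -0.17 ± 0.036 SE, adjusted p = 0.0298) and mt-Nd6 (-0.22 ± 0.044, adjusted p = 0.0249), both lower, beside 0.557% of genes (0.258% lower). There all 5 libraries correlated best with their own number, and 1 of the 5 pairs did not exceed the 0.1 asked for pairing. Without the block, 0 of 25, 2 of 23 and 0 of 24 tested members had an unadjusted edgeR p below 0.05 at 3, 24 and 48 h. Beside them stood 974 of 17009, 786 of 17060 and 980 of 16925 genes. The 2 members were mt-Nd4 and mt-Nd6. mt-Rnr1 held 408, 568, 593, 422 and 384 CPM at 3 h, between vehicle and 50 µM on average, with a log2 fold change over vehicle of 0.24 and a 95% interval of -0.02 to 0.51. At 24 and 48 h its log2 fold changes were 0.094 and 0.11, with intervals of -0.02 to 0.21 and -0.10 to 0.33. For mt-Rnr1 these upper bounds lie below the values at 50 µM (1.09, 0.87 and 1.21), and the 2 doses share the vehicle libraries.

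Some within-library ratios at 10 µM did not overlap vehicle. mt-Rnr1 for 100 mt-Rnr2 counts was 93.5, 91.4, 118, 89.1 and 103 at 3 h, above all vehicle libraries by a narrow margin (lowest 89.1 against a highest of 88.9 in vehicle), and overlapped vehicle at 24 and 48 h. The share of mt-Co1 in the messenger RNA counts was 40.1, 41.8, 41.7, 40.7 and 41.5% at 48 h, against 38.2, 39.5, 39.9, 38.9 and 38.6% in vehicle, with no overlap, and it overlapped at 3 and 24 h. mt-Nd6 for 100 mt-Cytb counts at 48 h was 18.5, 16.8, 18.1, 17.6 and 16.7, below all vehicle libraries (20.5, 19.4, 18.7, 18.8 and 19.7).

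Against 10 µM directly, 50 µM BPA gave higher mt-Rnr1 at each time. In 1 fit of all 45 libraries, 5 members were called at 3 h (2 higher, 3 lower, beside 0.618% of genes, 0.353% higher and 0.265% lower), 2 at 24 h (both higher, beside 0.789%, 0.26% higher) and 4 at 48 h (all higher, beside 3.14%, 1.02% higher). mt-Rnr1 was higher, with log2 fold changes of 0.85 ± 0.14 (SE) at 3 h, 0.78 ± 0.14 at 24 h and 1.10 ± 0.14 at 48 h (adjusted p = 1.93e-04, 0.00150 and 6.28e-07). mt-Rnr2 was higher at 3 and 48 h (0.55 and 0.70 on the log2 scale), mt-Tp at 24 and 48 h (0.70 and 0.58) and mt-Co1 at 48 h (0.38). mt-Nd4, mt-Nd6 and mt-Cytb were lower at 3 h, with log2 differences of -0.44, -0.47 and -0.44.

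Several of these calls rested on single libraries. At 3 h, 1 member (mt-Rnr1) remained called when only the 2 groups entered the fit, and 1 without 10 µM replicate 3 or without 50 µM replicate 1. The count was 3 without 10 µM replicate 2 or without 50 µM replicate 4 or 5. mt-Rnr2 at 3 h kept its call in the fits without 10 µM replicate 2 or 50 µM replicate 5 alone, with an adjusted p of up to 0.149 in the others. mt-Cytb lost its call without 10 µM replicate 3 or 50 µM replicate 1 (adjusted p up to 0.0604), mt-Nd4 without 10 µM replicate 2 or 3 or 50 µM replicate 1 or 5 (up to 0.172) and mt-Nd6 without these or 50 µM replicate 4 (up to 0.143). mt-Co1 at 48 h lost it without 10 µM replicate 3 or 50 µM replicate 1 (adjusted p up to 0.139).

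The effect of 50 µM BPA was compared between times. The tests of the difference itself called 0 of 26 members for 24 h minus 3 h, 48 h minus 24 h and 48 h minus 3 h with edgeR, beside 0.592%, 0.0% and 1.96% of all genes. At an unadjusted p below 0.05 the edgeR counts were 3, 0 and 7 of 26 members, beside 1877, 641 and 2260 of 19259 genes. DESeq2 called 1, 0 and 3 members, beside 1.11%, 0.0208% and 2.73% of genes. These were mt-Tp for 24 h minus 3 h, and mt-Tp, mt-Co1 and mt-Ts2 for 48 h minus 3 h. The difference closest to the threshold was that of mt-Tp, a difference in log2 fold change of 0.63 ± 0.18 (SE) for 48 h minus 3 h (adjusted p = 0.0507, and from 0.0220 to 0.0473 under the 4 alternatives that called it) and 0.65 for 24 h minus 3 h (adjusted p = 0.0804). For mt-Co1 it was 0.45 (adjusted p = 0.0851), and for mt-Rnr1 and mt-Nd6 0.12 and 0.11. For 24 h minus 3 h, 1 member was called without 50 µM replicate 3 of 3 h. For 48 h minus 3 h, 2 were called without 50 µM replicate 3 of 3 h or replicate 3 of 48 h, and 1 without 50 µM replicate 4 of 48 h, vehicle replicate 1 of 3 h or vehicle replicate 5 of 48 h.

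In vehicle cultures, called members were all lower at the later time. Between 24 and 48 h, mt-Rnr1 and mt-Rnr2 fell by 0.43 and 0.36 on the log2 scale (adjusted p = 0.00173 and 0.0118), with every 48 h library below every 24 h library, and these were the 2 called of 24 tested, beside 8.45% of genes (3.02% lower). Between 3 and 24 h, 1 of 25 was called, beside 30.0% of genes (13.8% lower): mt-Nd4l (a complex I subunit), at 4.25, 7.59, 2.98, 3.20 and 1.14 CPM at 3 h and 1.26, 2.44, 1.44, 1.79 and 1.44 CPM at 24 h, with overlapping groups. Between 3 and 48 h, 6 of 25 were called, all lower, beside 46.7% of genes in either direction and 22.9% lower. They were mt-Rnr1 (-0.33 ± 0.10 SE), mt-Co2 (-0.34), mt-Co3 (-0.54), mt-Nd4l (-1.22), mt-Te (-0.64) and mt-Tp (-0.39).

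mt-Co2 and mt-Co3 encode subunits of cytochrome c oxidase and share nearly all of their sequence with nuclear copies. mt-Co2 held 15.3, 15.1, 17.02, 17.04 and 11.7 CPM at 3 h and 14.6, 11.1, 11.4, 10.2 and 12.6 CPM at 48 h. mt-Co3 held 16.8, 15.7, 20.2, 22.5 and 12.3 CPM at 3 h and 13.2, 10.2, 9.57, 12.1 and 14.97 CPM at 48 h. At 48 h mt-Nd4l held 1.89, 1.01, 1.67, 1.90 and 1.64 CPM, and mt-Te held 1.79, 2.39, 2.56, 2.98 and 2.03 CPM. The groups of 3 and 48 h overlapped for mt-Rnr1, mt-Tp and each of these 4.

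The rest of the messenger RNAs were not called over time in vehicle with edgeR as fitted above, among them the 7 with high counts, with log2 fold changes for 48 h over 3 h of 0.033 for mt-Co1, -0.028 for mt-Cytb and -0.051 for mt-Nd6. mt-Atp6 had -0.44 (adjusted p = 0.0620) and was called lower with upper-quartile scaling, DESeq2, no filter or the nuclear copies added (adjusted p from 0.0247 to 0.0468). mt-Nd4l lost its 24 h call without vehicle replicate 1, 3, 4 or 5 of 24 h or 1 or 2 of 3 h, with an adjusted p of up to 0.110, and 2 members were called without replicate 3 or 5 of 3 h. Both calls of mt-Nd4l ended once counts of the nuclear copies were added. At 48 h over 3 h, 3 members were called without vehicle replicate 2 of 3 h, where mt-Rnr1, mt-Nd4l and mt-Te lost their calls along with mt-Co2 (adjusted p of mt-Rnr1 0.0540 and of mt-Nd4l 0.0618). mt-Te also lost its call without replicate 5 of 3 h or replicate 1 of 48 h (adjusted p up to 0.0613), and mt-Co2 in all fits but those without replicate 5 of 3 h or replicate 1 of 48 h (up to 0.108). The call of mt-Rnr2 between 24 and 48 h ended in the fit of all 45 libraries (adjusted p = 0.0990), that of mt-Te with no filter on low counts (0.0520) and that of mt-Co2 with no filter, with the replicate block or in the fit of all 45 libraries (up to 0.115).

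Nuclear genes that copy mitochondrial DNA or make and process its RNA were read from a list of 47, all tested. With 50 µM BPA, 0 were higher and 2 lower at 3 h, 0 and 1 at 24 h, and 1 and 2 at 48 h, beside 1.41%, 3.47% and 9.18% of all genes called in either direction, with a median log2 fold change of -0.00081, -0.0083 and -0.0087 (over all genes -0.0021, -0.00090 and -0.0049). Mettl17, a factor of mitochondrial ribosome assembly, fell at each time, by 0.62, 0.63 and 0.74 on the log2 scale (SE 0.13, 0.10 and 0.085). Its adjusted p was 0.0278, 0.00426 and 6.93e-05. Ptcd3, a protein of the small mitochondrial ribosomal subunit, fell by 0.32 at 3 h, Polg, the polymerase of mitochondrial DNA, fell by 0.26 at 48 h, and Angel2 rose by 0.24 at 48 h.

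The transcription and RNA stability factors below were not called by edgeR. Polrmt (the mitochondrial RNA polymerase), Tfam and Tfb2m (its transcription factors) had log2 fold changes of -0.16, -0.043 and -0.20 at 3 h, 0.0093, -0.082 and -0.12 at 24 h, and -0.051, -0.00092 and -0.095 at 48 h. Lrpprc and Slirp, which bind and stabilise mitochondrial messenger RNAs, had -0.059 and -0.025 at 3 h and 0.069 and -0.19 at 48 h. In vehicle at 3 h Lrpprc was at 84.0 ± 7.05 CPM and Slirp at 2.33 ± 0.655 CPM (SD). The lowest library held 0.316 CPM of Slirp, so its values cannot show that it was unchanged. Mtpap (the poly(A) polymerase), Pnpt1 and Supv3l1 (the degradosome) had -0.11, -0.20 and -0.094 at 3 h, and Twnk (the DNA helicase) had 0.062 at 3 h and 0.23 at 48 h (adjusted p = 0.0539). Of 7 regulators that include Ppargc1a and Nrf1, 0 were called at each time with edgeR.

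Markers of other cells and RNAs that poly-T beads should not bind were read beside these changes. Skeletal muscle markers (Myod1, Myog, Acta1, Tnnt3, Mylpf and Myh3) were lower with 50 µM BPA for 0, 4 and 4 of 6 at 3, 24 and 48 h, and macrophage markers (Csf1r, C1qa, Cd68, Adgre1 and Lyz2) for 0, 2 and 3 of 5, beside 0.518%, 2.1% and 5.3% of all genes lower. The summed muscle level ranged from 725 to 835 CPM in vehicle and from 819 to 919 CPM with 50 µM BPA at 3 h, and from 2539 to 3814 against 1038 to 1747 CPM at 48 h. At 24 h it ranged from 1615 to 2838 CPM in vehicle and from 1247 to 1619 CPM with 50 µM BPA, overlapping. The summed macrophage level ranged from 107.6 to 133.7 CPM in vehicle and from 83.3 to 91.6 CPM with 50 µM BPA at 24 h, and from 156 to 231 against 90.4 to 167 CPM at 48 h, overlapping. Of 4 cartilage markers, 1 (Sox9) was called higher at 48 h (log2 fold change 0.23). At 3 h none of the markers of muscle, macrophages, cartilage, epidermis, red cells or endothelium was called, beside 1.41% of all genes. Of 11 RNAs without a poly(A) tail found here, 2 to 4 were tested and 0 called. Their summed level was 13.0 ± 3.00, 14.9 ± 6.14 and 16.6 ± 6.15 CPM in vehicle at 3, 24 and 48 h (SD). With 50 µM BPA it was 12.3 ± 4.71, 19.4 ± 3.98 and 13.4 ± 2.65 CPM. Such low counts cannot show whether the purification differed. Of 64 replication-dependent histone genes 0 of 42, 0 of 17 and 1 of 15 (lower) were called, beside 1.41%, 3.47% and 9.18% of all genes. The part of muscle and macrophage cells and of RNA without tails in the changes of mitochondrial transcripts was not tested. Of 3 retained nuclear RNAs (Malat1, Neat1 and Meg3), 0 were called at 3 and 24 h and 1 at 48 h, beside 9.18% of all genes there. It was Neat1, which rose by 0.70 (± 0.13 SE, adjusted p = 0.00323). Their summed level at 48 h was 3544 ± 562 CPM in vehicle and 3584 ± 202 CPM with 50 µM BPA (SD), overlapping.

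Nuclear copies of mitochondrial DNA were called for 0, 0 and 2 of 9 tested at 3, 24 and 48 h, beside 1.41%, 3.47% and 9.18% of all genes. Both were higher, beside 3.88% of all genes higher: Gm28661 (log2 fold change 0.47 ± 0.11 SE), the copy of mt-Co2, and Gm28438 (0.41 ± 0.11), the copy of mt-Nd3. With the copies' counts added to their mitochondrial gene, mt-Co2 and mt-Nd3 were called at 48 h as well (0.43, adjusted p = 0.0140, and 0.41, adjusted p = 0.0278). In these sums the copies held more counts than the genes, with means of 357 for Gm28438 against 12.2 for mt-Nd3 and 356 for Gm28661 against 292 for mt-Co2. The calls of the sums are therefore not independent of those of the copies.

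The genes whose pattern over the 9 group means was most like that of mt-Rnr1 (Spearman, among 13396 genes) were Letm2, Tbc1d9b and Cdk20 at 0.983 and A730020E08Rik and Atf6b at 0.967. For mt-Nd6 they were mt-Cytb and Lztr1 at 0.967 and Apod, Pmpca and mt-Nd4 at 0.950. These are descriptions over 9 points that share libraries and depth, and 8 genes reached the fifth value in each case.

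For 50 µM BPA against vehicle, the authors' deposited tables list 8 members with an adjusted p below 0.05 at 3 h, 7 at 24 h and 7 at 48 h, beside 1.59%, 3.0% and 6.42% of the genes with an adjusted p there. For 10 µM the authors' deposited tables list 0 at each time, beside 0.0418%, 0.0486% and 0.168%. In the authors' deposited tables mt-Rnr1 has log2 fold changes of 1.09, 0.88 and 1.21, and mt-Nd6 -0.57, -0.52 and -0.45.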

How the data were processed

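RNA-seq counts of 45 libraries of cultured mouse forelimb buds were analysed. The authors deposited 9 tables, 1 per comparison, with raw read counts per gene, counts normalised by a size factor (a signal), FPKM, the gene length, log2 fold changes and p-values, per the file headers. The submitters' processing notes name CASAVA 1.8, STAR 2.5, HTSeq 0.6.1, DESeq2 2 and build mm10, without roles. No source used here states how reads with several equal places or overlapping genes were counted, or whether strand was used. Tables list genes with at least 2 counts over their 10 libraries, and a gene missing from a table was set to 0. Of 1345730 values held in several tables, 0 were unequal.

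The deposited counts were tested with edgeR 4.0.16 in R 4.3.3 (quasi-likelihood test, TMM scaling, filterByExpr with a minimum count of 10 and a minimum total of 15, Benjamini-Hochberg adjustment over all genes tested, threshold 0.05). Comparisons with vehicle and between vehicle times were each fitted on their 10 libraries. Comparisons of 50 with 10 µM and of effects between times came from 1 fit of all 45. Levels are CPM after TMM scaling of all 45 libraries, and ratios use raw counts. DESeq2 1.42.0 was an alternative. The scripts were tested on simulated data. The reads carry no molecular identifiers, so library totals of 17.54 to 27.12 M counts give counting error only.

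Members, lists and ratios were chosen with earlier results of these data known. By rule, every mt- gene was accounted for. Values by library were given for mt-Rnr1, mt-Rnr2, mt-Nd6, mt-Cytb, mt-Co1 and other members called with 50 µM BPA or between vehicle times, and transfer RNAs with a mean of at least 10 counts were described, the low ones by range.

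Groups share replicate numbers in the labels. Deviations of same-numbered libraries from their group means correlated at 0.105 to 0.215 in all 5 pairs of 50 µM BPA and vehicle at 48 h, where each of the 5 correlated best with its own number. In the other comparisons at least 1 pair did not exceed 0.1. For 10 µM at 48 h, replicates 1 and 2 are exchanged between the titles and the library codes, and the titles were followed. Alternatives were other scaling factors, other filters, DESeq2, other sets of libraries in the fit, the replicate block, leaving out each library, and adding the counts of nuclear copies, which was chosen after seeing the data.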

Additional observations from a re-analysis of the deposited data

Results flagged for a closer look

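Among the groups of 5 libraries examined for each described level and ratio, a single library stood apart in 11, or 4.53% of them, where the gap to its nearest neighbour exceeded 0.71 of the whole range. Chance gives about 1 such group in 20, so the number is no higher than chance gives. Levels in CPM made up 6 of them. mt-Rnr2 was highest in vehicle replicate 2 at 24 h, at 593 against 534 for the next library. mt-Tn was lowest in 50 µM replicate 3 at 24 h, at 6.52 against 9.60, in the group in which it was called. mt-Co3 was highest in 10 µM replicate 1 at 48 h, at 29.5 against 14.7. mt-Nd4l was highest in 50 µM replicate 2 at 3 h, at 4.42 against 2.41, and lowest in vehicle replicate 2 at 48 h, at 1.01 against 1.64. mt-Te was lowest in 10 µM replicate 5 at 48 h, at 1.51 against 2.32.

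Ratios within a library made up the other 5. The library of 10 µM replicate 3 at 3 h held 73.4 counts of mt-Nd6 for 100 of mt-Nd5, against 38.6 in the next, and had the lowest share of mt-Co1 in messenger RNA counts, 35.9% against 39.0%. Vehicle replicate 4 at 3 h was highest in mt-Nd6 for 100 heavy-strand messenger RNA counts (4.19 against 3.92) and for 100 mt-Cytb counts (21.97 against 19.7). In 10 µM replicate 4 at 24 h, mt-Nd6 for 100 heavy-strand messenger RNA counts was lowest, at 3.15 against 3.50.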

How the results depend on the processing

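Over 37 results for single members, 714 recomputed values kept the direction, 648 of them kept the call and 66 lost it. The number of members called moved by more than 1.5 times in these cases, each given with the share of all genes called under that setting. With DESeq2 it was 10 (3.5% of genes, 1.41% with edgeR) for 50 µM BPA against vehicle at 3 h, 7 (3.83%, 3.14% with edgeR) for 50 against 10 µM at 48 h, and 1 (1.11%) and 3 (2.73%) for the differences 24 h minus 3 h and 48 h minus 3 h. With the replicate block it was 10 (15.5%, 9.18% without the block) for 50 µM against vehicle at 48 h, where the numbers pair the libraries, and 2 (0.557%) for 10 µM at 24 h (mt-Nd4 and mt-Nd6, both lower), where pair correlations ranged from 0.0664 to 0.358, all 5 libraries correlated best with their own number, and the numbers were not taken to pair them. With all 45 libraries in 1 fit it was 2 (29.7%) between 3 and 24 h and 1 (9.48%) between 24 and 48 h in vehicle. With only the groups compared it was 1 (0.124%) and 7 (3.29%) for 50 against 10 µM at 3 and 48 h, and 1 (0.59%) and 2 (2.36%) for 24 h minus 3 h and 48 h minus 3 h. The difference 48 h minus 3 h gave 1 with a filter of at least 1 CPM in 5 libraries (2.42%), with no filter (0.865%), with scaling without the mitochondrial genes (1.94%) and with nuclear copies added (1.96%). The last left 0 (30.0%) between 3 and 24 h in vehicle. The cause was not tested.

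With each library left out in turn, members called ranged from 5 to 8, 5 to 7 and 5 to 7 for 50 µM against vehicle at 3, 24 and 48 h and stayed at 0 for 10 µM. The ranges were 0 to 2, 2 to 3 and 3 to 7 between vehicle times (24 against 3 h, 48 against 24 h, 48 against 3 h), 1 to 4, 2 and 4 to 5 for 50 against 10 µM, and 0 to 1, 0 and 0 to 2 for the differences 24 h minus 3 h, 48 h minus 24 h and 48 h minus 3 h. Few counts limit most transfer RNAs.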
